A study of Mus musculus with 12 samples.

Results

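Irf1, Irf2, Irf3, Irf5, Irf7, Irf8, Irf9 and Stat2 encode 8 transcription factors that carry interferon and nucleic acid signals to DNA. They were taken by gene symbol from a pair of expression tables that each list 52636 genes, and all 8 were found in both. The genes were picked with their responses to siKlf4 and their baseline levels in these same libraries already known, so these values are given below as a description, with no test. Bulk RNA-seq, in which the RNA of a whole culture is sequenced together, was performed on 12 libraries in 4 groups of 3, namely SMCs with Scr, SMCs with siKlf4, PDGFR-β+ cells with Scr and PDGFR-β+ cells with siKlf4. The study asked what loss of KLF4, a zinc finger transcription factor, does to these lung cell types. SMCs were C57BL/6 cells of WT genotype bought from CellBiologics, which the methods describe as primary and the labels as a cell line, airway in the titles and tracheal in the source. PDGFR-β+ cells were taken from lungs of mice labelled C57BL/6, 12 weeks old and WT, which the study's methods describe as Zs+ cells that carry a reporter switched on by tamoxifen under Pdgfrb-CreERT2 (ROSA26R(Zs/+)). In both cell types, the control RNA Scr has a scrambled sequence and siKlf4 targets Klf4 as a small interfering RNA, given at 50 nM for 6 h and followed by 72 h of culture per the methods. The methods name more than 1 siRNA supplier and more than 1 transfection reagent, without saying which served which cells. Cells bought from a supplier and cells taken from mouse lungs are thus compared, and the study describes the libraries of a group as independent experiments.

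Type I interferons bind a receptor on the cell surface whose kinases phosphorylate STAT2 and a STAT partner. Together with IRF9 these form ISGF3, a complex that binds the interferon-stimulated response element in the promoters of antiviral genes. IRF3 and IRF7 act one step earlier, because sensors of viral nucleic acid activate them and they then switch on the interferon genes themselves. IRF5 acts downstream of Toll-like receptors. IRF1 is an activator made in response to interferon-γ, IRF2 competes with it for the same DNA and mostly represses, and IRF8 is best known from myeloid and B cells.

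The deposited values are TPM, which correct for transcript length and fix the sum of every library, so levels of different genes can be set side by side within a library. Every library summed to 1000000 TPM, 20590 to 21780 genes per library were above 0. The methods give a target depth per sample, but TPM keep no read counts, so the depth reached by each library is unknown. The targeted gene was checked first. Klf4 measured 89.6 to 96.3 TPM in SMCs with Scr and 16.3 to 26.5 TPM with siKlf4. In PDGFR-β+ cells it measured 134 to 146 TPM with Scr and 12.3 to 13.8 TPM with siKlf4. The siKlf4 mean was 0.219 times the Scr mean in SMCs and 0.0916 times in PDGFR-β+ cells. The part of this unequal knockdown in the differences between the cell types below was not tested. Of the 6 SMC libraries, 1 with Scr and 1 with siKlf4 carry no replicate number in their column names. The sample titles number the SMC libraries of each group 1 to 3, so by elimination these would be replicate 1. They are called unnumbered here. Values of SMCs are therefore listed with the unnumbered library in first place and replicates 2 and 3 after it, and those of PDGFR-β+ cells in the order of replicates 1 to 3. All 7 smooth muscle markers, Acta2 and Myh11 among them, averaged 1 TPM or more in Scr libraries of both cell types, as did all 7 markers of PDGFR-β+ mesenchyme. The summed level of the smooth muscle markers went from between 1495 and 2284 TPM with Scr to between 3410 and 4174 TPM with siKlf4 in SMCs, and from between 5551 and 6408 TPM to between 4708 and 5002 TPM in PDGFR-β+ cells, where Des averaged under 1 TPM with siKlf4. The sum was thus higher in PDGFR-β+ cells than in SMCs, in tables normalized separately. It was mostly Acta2 and Tagln, and some markers moved against it. In PDGFR-β+ cells the mean of Myh11 went from 20.8 to 33.4 TPM with siKlf4. Lmod1 went from 57.0 to 85.4 TPM there and Smtn from 62.3 to 77.3 TPM, while Acta2, Tagln, Cnn1 and Des had lower means. In SMCs Des alone had a lower mean with siKlf4. The sum of the mesenchyme markers went from between 3057 and 3149 TPM to between 1985 and 2355 TPM in SMCs. In PDGFR-β+ cells it went from between 2815 and 3476 TPM to between 2036 and 2849 TPM. It was mostly Col1a1 and Col3a1. In PDGFR-β+ cells the mean of Pdgfra was 169 TPM with Scr and 180 TPM with siKlf4, and that of Notch3 7.73 and 7.77 TPM. The other mesenchyme markers had lower means with siKlf4 there, as did all of them in SMCs. The part of these changes in the values below was not tested. The 4 endothelial markers summed to at most 3.87 TPM in SMCs and 18.4 TPM in PDGFR-β+ cells, mostly Kdr, and the 5 epithelial markers to at most 0.947 TPM in any library. Fold changes below are differences of log2(TPM + 1), siKlf4 minus Scr, with the standard error (SE) from limma. This scale understates the change of low genes. In bulk RNA, fewer cells that express a gene and less RNA of it per cell cannot be told apart. The response to loss of Klf4 and any other response of the cells to the siRNA duplex also cannot be told apart, since both go with the same libraries.

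**Figure D1:**
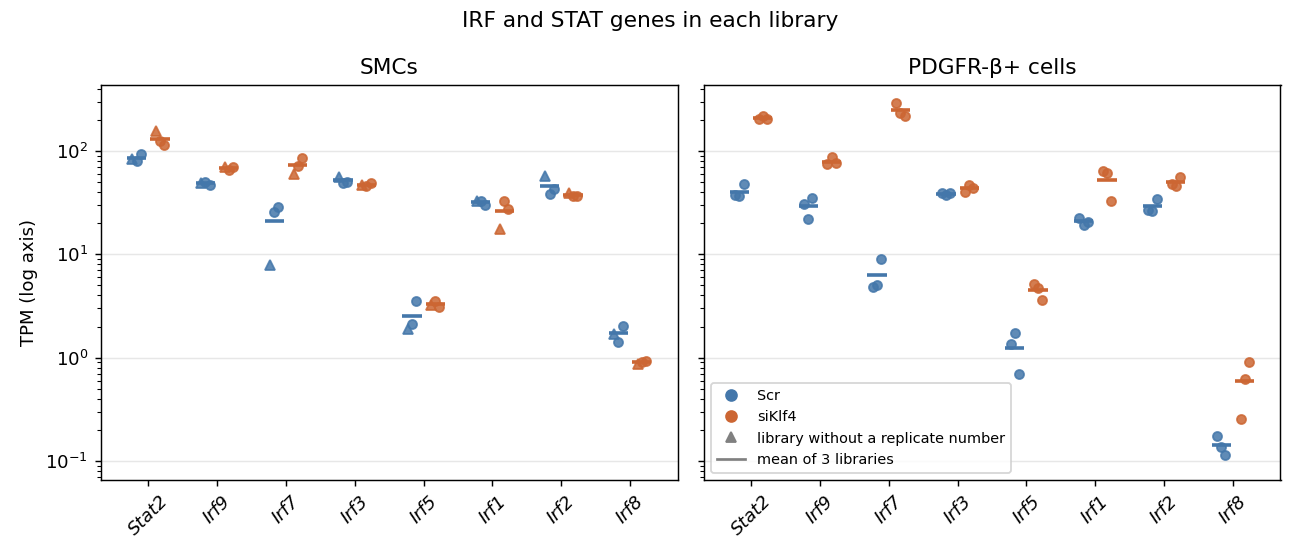
TPM of the 8 IRF and STAT genes in each library on a log axis, SMCs on the left and PDGFR-β+ cells on the right, Scr in blue and siKlf4 in orange. Points are libraries, triangles are the SMC libraries without a replicate number, and lines are means of 3 libraries. The points of Irf7 move furthest, and in PDGFR-β+ cells the siKlf4 points lie above the Scr points for all 8 genes.

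Stat2 (ENSMUSG00000040033.16) and Irf9 (ENSMUSG00000002325.14) are the subunits of ISGF3 considered here. On chromosome 10 of mm10 (GRCm38), Stat2 spans 128270559 to 128292849 of the forward strand in GENCODE M21, and no other annotated gene overlaps it. In PDGFR-β+ cells Stat2 stood at 37.2, 37.0 and 47.5 TPM in the Scr libraries and at 206, 221 and 203 TPM in the siKlf4 libraries. The groups lay far apart, the ratio of the means was 5.17, and the log2 fold change was 2.35 (SE 0.11), the 95th largest of 13694 genes tested. In SMCs Stat2 stood at 83.1, 79.8 and 92.8 TPM in the Scr libraries and at 156, 125 and 115 TPM in the siKlf4 libraries. These groups did not overlap either, but the ratio of the means was only 1.55 and the log2 fold change 0.61 (SE 0.12). Within the numbered SMC libraries it was 0.47, and between the unnumbered pair 0.90. The response in SMCs was smaller than that in PDGFR-β+ cells by 1.74 on the log2 scale (SE 0.17). With Scr, Stat2 had the higher level in SMCs, in tables normalized separately.

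Irf9, the DNA-binding subunit of ISGF3, spans 55603571 to 55610030 of chromosome 14 (forward strand) and overlaps Rnf31 on the same strand. In SMCs Irf9 stood at 49.1, 50.1 and 47.2 TPM in the Scr libraries and at 69.9, 66.2 and 70.0 TPM in the siKlf4 libraries. This was the tightest of the responses in SMCs. The log2 fold change was 0.48 (SE 0.065), with 0.48 in the numbered libraries and 0.50 between the unnumbered pair. In PDGFR-β+ cells Irf9 stood at 30.5, 22.1 and 35.1 TPM in the Scr libraries and at 74.2, 86.8 and 76.6 TPM in the siKlf4 libraries. The siKlf4 libraries were again all above the Scr libraries, with a log2 fold change of 1.43 (SE 0.16), so the responses differed by 0.94 (SE 0.19). Reads over shared bases may count for either gene here, since strand cannot separate genes on the same strand. The methods describe strand-specific libraries, but whether the counting used strand is not given in the sources used here, which bears on genes with an antisense neighbour. Rnf31, which encodes a ubiquitin ligase subunit, had a mean of 13.8 TPM with Scr and 21.1 TPM with siKlf4 in PDGFR-β+ cells (log2 fold change 0.58, SE 0.11, adjusted p = 0.0059), a smaller change than that of Irf9. What this overlap contributes to the Irf9 values was not tested.

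The promoter of Stat2 is shown because it is among the few member promoters with the letters of an ISGF3 site. The 250 bases upstream of its RefSeq start (GRCm38.p6, chr10:128270248-128270497, forward strand) hold, on the reverse strand, the letters GAAA repeated after any pair of bases, which is the core of the interferon-stimulated response element, from -222 to -213 relative to the start, in capitals.
Stat2: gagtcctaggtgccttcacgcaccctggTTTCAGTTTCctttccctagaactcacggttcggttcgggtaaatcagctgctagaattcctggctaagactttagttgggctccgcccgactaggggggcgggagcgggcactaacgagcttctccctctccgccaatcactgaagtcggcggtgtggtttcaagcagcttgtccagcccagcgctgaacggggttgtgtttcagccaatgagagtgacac
That RefSeq start lies upstream of the first base of Stat2 in GENCODE M21. Irf9 has RefSeq promoter windows at 2 starts, and neither holds this core.

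Irf7 (ENSMUSG00000025498.15) had the largest response of the 8 genes in both cell types. IRF7 amplifies interferon production, since interferon raises IRF7 and IRF7 raises the interferon genes. The gene spans 141262706 to 141266481 of chromosome 7 (reverse strand). In PDGFR-β+ cells it stood at 4.87, 5.08 and 8.99 TPM in the Scr libraries and at 293, 232 and 221 TPM in the siKlf4 libraries. The mean was 39.4 times higher with siKlf4, and the log2 fold change of 5.13 (SE 0.21) was the 6th largest of 13694 genes. In SMCs Irf7 stood at 7.94, 25.7 and 28.9 TPM in the Scr libraries and at 60.6, 71.5 and 85.6 TPM in the siKlf4 libraries. Here the ratio of the means was 3.48 and the log2 fold change 1.92 (SE 0.43), the 27th largest of 13709 genes. The SMC groups did not overlap, but the unnumbered Scr library was far below the others. Between the unnumbered libraries the change was 2.78, within the numbered ones 1.49, and without the unnumbered Scr library 1.36. The responses of the cell types differed by 3.21 on the log2 scale (SE 0.54), and by 3.76 without that library.

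The Irf7 promoter is shown because the gene responded most while its window holds neither core searched for. The bases below are the 250 upstream of its RefSeq start (GRCm38.p6, chr7:141266425-141266674, reverse strand), printed without capitals because this core and TTCNNNGAA, the core of the gamma-activated site bound by STAT dimers, match nowhere in them on either strand.
Irf7: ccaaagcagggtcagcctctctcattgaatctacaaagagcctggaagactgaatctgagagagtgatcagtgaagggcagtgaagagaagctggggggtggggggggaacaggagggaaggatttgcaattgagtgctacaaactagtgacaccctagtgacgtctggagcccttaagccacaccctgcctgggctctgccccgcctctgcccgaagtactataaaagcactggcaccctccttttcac
The same stretch holds CCACNCCC, a CACCC box of the kind that KLF proteins bind, from -71 to -64, and its reverse complement from -156 to -149. This is common, as 15.9% of 32851 RefSeq promoter windows of mouse hold it in their 250 upstream bases. On the opposite strand the Phrf1 gene overlaps Irf7, and its mean in PDGFR-β+ cells was 37.4 TPM with Scr and 50.6 TPM with siKlf4 (log2 fold change 0.43, SE 0.096, adjusted p = 0.0099).

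Irf3 (ENSMUSG00000003184.15), the sensor-activated partner of Irf7 that cells make without stimulation, moved least. It spans 44997648 to 45002848 of chromosome 7 (forward strand) and overlaps Bcl2l12 on the reverse strand. In SMCs Irf3 stood at 56.4, 49.4 and 50.2 TPM in the Scr libraries and at 46.8, 45.7 and 48.7 TPM in the siKlf4 libraries. All siKlf4 libraries were slightly below all Scr libraries, with a log2 fold change of -0.14 (SE 0.077). It was -0.077 in the numbered libraries and -0.26 between the unnumbered pair. In PDGFR-β+ cells Irf3 stood at 39.5, 37.1 and 39.0 TPM in the Scr libraries and at 40.4, 47.4 and 43.9 TPM in the siKlf4 libraries. The siKlf4 libraries were slightly above the Scr libraries, by 0.18 (SE 0.082). The median of all genes tested in these cells was 0.097, and after median-ratio scaling of the libraries, which brings it to -0.0032, the value for Irf3 was 0.073. Its antisense neighbour Bcl2l12 rose in PDGFR-β+ cells, with a log2 fold change of 0.63 (SE 0.14, adjusted p = 0.0088).

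Irf5 (ENSMUSG00000029771.12), which spans 29526625 to 29541871 of chromosome 6 (forward strand), was among the least abundant. In PDGFR-β+ cells it stood at 1.34, 1.72 and 0.697 TPM in the Scr libraries and at 5.13, 4.70 and 3.61 TPM in the siKlf4 libraries. The lowest siKlf4 library was above the highest Scr library, and the log2 fold change was 1.30 (SE 0.21), or 1.83 with a pseudocount of 0.1. In SMCs Irf5 stood at 1.89, 2.12 and 3.50 TPM in the Scr libraries and at 3.21, 3.56 and 3.09 TPM in the siKlf4 libraries. These groups overlapped, since Scr replicate 3 was near the siKlf4 libraries, and the log2 fold change was 0.32 (SE 0.19). Tnpo3, which encodes a nuclear import receptor and overlaps Irf5 on the opposite strand, had 53.1 TPM with Scr and 72.8 TPM with siKlf4 in SMCs (log2 fold change 0.45, SE 0.083, adjusted p = 0.0090). Its mean was far above that of Irf5, and what part of the Irf5 values comes from it was not tested.

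Irf1 (ENSMUSG00000018899.16) and Irf2 (ENSMUSG00000031627.9), an activator and a repressor of shared sites, both had higher values with siKlf4 in PDGFR-β+ cells and not in SMCs. Irf1 spans 53770014 to 53778374 of chromosome 11 (forward strand) and overlaps Gm17334, a gene listed below 1 TPM in both cell types. In PDGFR-β+ cells Irf1 stood at 22.7, 19.3 and 20.7 TPM in the Scr libraries and at 64.5, 61.4 and 32.5 TPM in the siKlf4 libraries. The third siKlf4 library lay well below the other two, though still above the Scr libraries, and the log2 fold change was 1.24 (SE 0.24). It was 1.55 without that library. In SMCs Irf1 stood at 32.6, 33.0 and 30.3 TPM in the Scr libraries and at 17.6, 33.2 and 27.3 TPM in the siKlf4 libraries. The groups overlapped, and the log2 fold change was -0.33 (SE 0.21). It depended on the unnumbered siKlf4 library, since it was -0.86 between the unnumbered libraries, -0.069 within the numbered ones and -0.083 without that library. The responses of the cell types differed by 1.57 (SE 0.35).

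Irf2 spans 46739732 to 46847458 of chromosome 8 (forward strand) and overlaps 3 antisense or unclassified gene models. In PDGFR-β+ cells it stood at 27.1, 26.2 and 34.4 TPM in the Scr libraries and at 48.1, 45.5 and 56.2 TPM in the siKlf4 libraries. The groups did not overlap, and the log2 fold change was 0.76 (SE 0.13). In SMCs Irf2 stood at 57.7, 38.2 and 42.5 TPM in the Scr libraries and at 39.5, 36.5 and 36.4 TPM in the siKlf4 libraries. These groups overlapped, and the log2 fold change was -0.27 (SE 0.15), with -0.54 between the unnumbered libraries and -0.14 within the numbered ones. Without the unnumbered Scr library it was -0.10. The responses differed by 1.03 (SE 0.21).

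The promoters of this pair are set side by side because both hold the STAT dimer core and only that of Irf2 also holds the ISGF3 core. Each line gives the 250 bases upstream of a RefSeq start on the forward strand (GRCm38.p6, chr11:53769764-53770013 for Irf1 and chr8:46739495-46739744 for Irf2), with matches in capitals.
Irf1: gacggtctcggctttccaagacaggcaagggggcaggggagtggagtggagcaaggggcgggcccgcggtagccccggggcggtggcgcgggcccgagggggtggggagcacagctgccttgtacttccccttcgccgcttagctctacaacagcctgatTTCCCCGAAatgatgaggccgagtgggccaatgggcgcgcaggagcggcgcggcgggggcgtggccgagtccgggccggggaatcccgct
Irf2: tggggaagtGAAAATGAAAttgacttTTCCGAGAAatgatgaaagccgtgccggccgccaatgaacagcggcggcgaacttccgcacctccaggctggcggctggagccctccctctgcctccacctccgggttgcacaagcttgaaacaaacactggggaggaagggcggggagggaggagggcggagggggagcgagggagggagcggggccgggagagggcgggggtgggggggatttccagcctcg
In Irf1 the match to TTCNNNGAA runs from -90 to -82. In Irf2 the match to the response element core runs from -241 to -232 and the TTCNNNGAA match from -224 to -216, so they do not overlap. A second RefSeq start of Irf1 has a window with neither core. A match of letters is a description and does not show that a factor binds there.

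Irf8 (ENSMUSG00000041515.9) was the least abundant. It spans 120736358 to 120756694 of chromosome 8 (forward strand) and overlaps Gm20388 on the same strand, which was listed at 0 TPM in all libraries. In SMCs Irf8 stood at 1.71, 1.42 and 2.02 TPM in the Scr libraries and at 0.868, 0.916 and 0.936 TPM in the siKlf4 libraries. The groups did not overlap, and the siKlf4 mean was 0.528 times the Scr mean (log2 fold change -0.50, SE 0.15; -0.84 with a pseudocount of 0.1). In PDGFR-β+ cells Irf8 stood at 0.175, 0.136 and 0.113 TPM in the Scr libraries and at 0.252, 0.627 and 0.904 TPM in the siKlf4 libraries. All siKlf4 libraries were above all Scr libraries, but the mean was under 1 TPM and the gene did not enter the fit there. Of 10 leukocyte markers, 3 averaged 1 TPM or more in SMCs with Scr and 2 with siKlf4, and their summed level went from between 45.5 and 49.5 TPM to between 24.9 and 29.6 TPM, mostly Cd14. In PDGFR-β+ cells 4 averaged 1 TPM or more with Scr and 3 with siKlf4, and the sum was 35.4 to 37.1 TPM with Scr and 29.1 to 33.8 TPM with siKlf4. Within it Cd14 rose (0.55, SE 0.090, adjusted p = 0.0027), while Lyz2 fell (-0.71, SE 0.14, adjusted p = 0.0054). Csf1r averaged 2.28 TPM with Scr and 0.775 TPM with siKlf4. No test is given for Csf1r, because it passed the minimum mean only through its Scr libraries. The pan-leukocyte gene Ptprc was at or below 0.019 TPM in SMCs and at or below 0.266 TPM in PDGFR-β+ cells, and the macrophage gene Adgre1 and the myeloid factor gene Spi1 were at 0 TPM in all 6 SMC libraries. In PDGFR-β+ cells Adgre1 and Spi1 reached at most 0.105 and 0.106 TPM. The macrophage marker Cd68 was higher, at 2.30 to 4.70 TPM in SMCs and 6.04 to 9.62 TPM in PDGFR-β+ cells. Lyz2 stood at 17.3 to 20.3 TPM with Scr and 9.49 to 13.6 TPM with siKlf4 in PDGFR-β+ cells. The part of these markers in the Irf8 values was not tested.

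**Figure D2:**
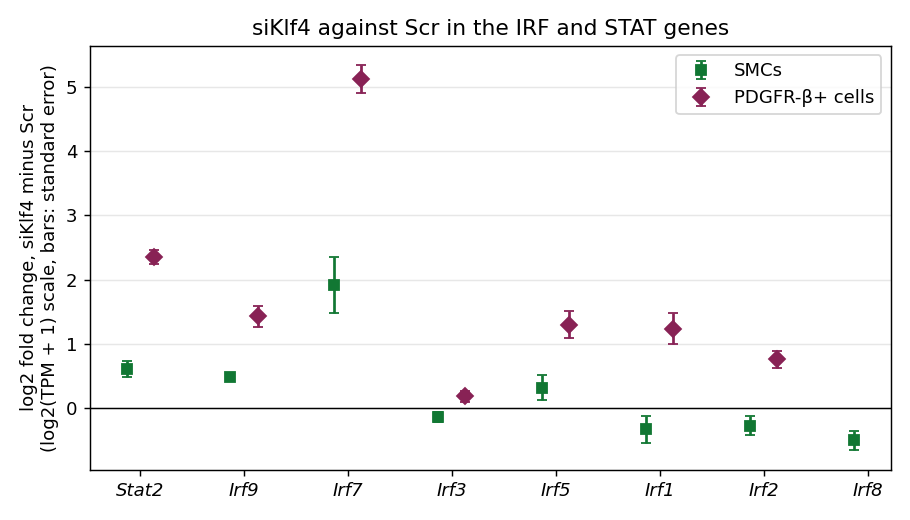
Log2 fold change of each IRF and STAT gene, siKlf4 minus Scr on the log2(TPM + 1) scale, in SMCs (green squares) and PDGFR-β+ cells (purple diamonds), with bars of 1 standard error. The diamond lies above the square for all 7 genes fitted in both cell types, and Irf8 was fitted in SMCs only.

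Of the 8 genes, all 8 passed the minimum mean of 1 TPM among SMC libraries and 7 among those of PDGFR-β+ cells. With Benjamini-Hochberg adjusted p below 0.05, 3 of 8 had higher and 1 had lower values in SMCs, where 28.5% of all genes tested passed (15.6% higher and 12.9% lower). The lower 1 is Irf8, whose mean passed 1 TPM only through its Scr libraries. Of the 7 in PDGFR-β+ cells, 6 had higher values and none a lower value, where 40.6% of all genes passed (25.3% higher and 15.3% lower). Groups that did not overlap were seen for 3 genes above and 2 below in SMCs, against 25.6% and 21.5% of all genes tested. In PDGFR-β+ cells all 7 fitted genes lay above and none below, against 33.9% and 19.8% of all genes. For the difference between the cell types 7 of 7 passed, all with the lower value in SMCs, where 33.0% of all genes passed and 18.5% were lower in SMCs. After median-ratio scaling the split over all genes turned to 19.3% higher and 21.7% lower in PDGFR-β+ cells and to 19.3% higher and 14.7% lower in SMCs for the difference. The 8 genes were chosen on these same contrasts, so nothing is read from their counts. Their median log2 fold change was 0.089 for SMCs and 1.30 for PDGFR-β+ cells, beside medians over all genes tested of 0.017 and 0.097.

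The order of the levels was the same in the Scr groups of both cell types and differed with siKlf4. In SMCs with Scr it ran from Stat2 (85.2 ± 6.74 TPM, SD, n = 3) over Irf3 (52.0 ± 3.82), Irf9 (48.8 ± 1.45), Irf2 (46.1 ± 10.3), Irf1 (32.0 ± 1.48) and Irf7 (20.9 ± 11.3) to Irf5 (2.50 ± 0.87) and Irf8 (1.72 ± 0.30). The libraries of Irf3, Irf9 and Irf2 overlapped along this order, as did those of Irf5 and Irf8. In PDGFR-β+ cells with Scr the order was the same, with Stat2 at 40.6 ± 6.02 TPM (SD, n = 3), Irf3 at 38.5 ± 1.24, Irf9 at 29.2 ± 6.61, Irf2 at 29.2 ± 4.48, Irf1 at 20.9 ± 1.74, Irf7 at 6.31 ± 2.32, Irf5 at 1.25 ± 0.52 and Irf8 at 0.141 ± 0.031. Stat2 overlapped with Irf3 there, and Irf9 with Irf2. The 8 means in SMCs were all above those in PDGFR-β+ cells, but the tables were normalized separately and no test was made across them.

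With siKlf4, Irf7 moved from 6th place to the 1st in PDGFR-β+ cells, at 249 ± 38.7 TPM (SD, n = 3), where its libraries overlapped with those of Stat2 at 210 ± 9.56 TPM. Irf9 followed at 79.2 ± 6.67 TPM, and Irf1, Irf2 and Irf3 overlapped in turn between 43.9 and 52.8 TPM on average. In SMCs with siKlf4 Irf7 reached the 2nd place at 72.6 ± 12.5 TPM, behind Stat2 at 132 ± 21.6 TPM and overlapping with Irf9 at 68.7 ± 2.19 TPM. Irf3 then had 47.1 ± 1.5 TPM, Irf2 37.4 ± 1.74 TPM and Irf1 26.0 ± 7.89 TPM, without overlap between neighbours.

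Ratios within a library do not depend on how the library was scaled. Irf7 had 0.123 to 0.231 times the TPM of Irf3 in PDGFR-β+ cells with Scr and 4.90 to 7.25 times with siKlf4. In SMCs this ratio was 0.141, 0.521 and 0.576 with Scr and 1.29, 1.56 and 1.76 with siKlf4. Irf3 was thus the more abundant in all Scr libraries and Irf7 in all siKlf4 libraries of both cell types. The ratio of Stat2 to Irf9 was 1.22 to 1.68 in PDGFR-β+ cells with Scr and 2.54 to 2.77 with siKlf4, without overlap. In SMCs it was 1.59 to 1.96 with Scr and 1.63 to 2.23 with siKlf4, with overlap. The ratio of Irf1 to Irf2 overlapped between Scr and siKlf4 in both cell types. In PDGFR-β+ cells it was 0.601 to 0.839 with Scr and 1.34, 1.35 and 0.578 with siKlf4, where replicate 3 stood apart.

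**Figure D3:**
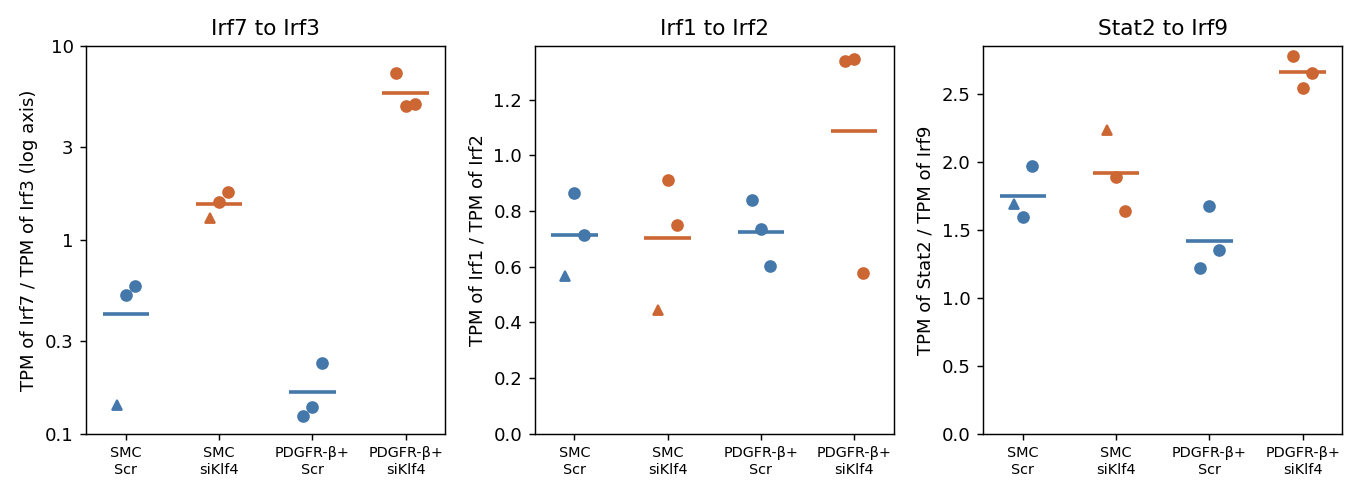
Ratio of the TPM of Irf7 to Irf3 (log axis), Irf1 to Irf2 and Stat2 to Irf9 in each library, with Scr in blue, siKlf4 in orange, triangles for SMC libraries without a replicate number and lines for means of 3 libraries. The Irf7 to Irf3 ratio is below 0.6 in all Scr libraries and above 1.2 in all siKlf4 libraries, and the other ratios overlap except for Stat2 to Irf9 in PDGFR-β+ cells.

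Other genes of these families were followed by the test over all genes. Stat6, the transducer of IL-4 and IL-13, rose in SMCs (log2 fold change 0.32, SE 0.062, adjusted p = 0.011), with 96.8 to 104 TPM with Scr and 122 to 128 TPM with siKlf4. In PDGFR-β+ cells the value of Stat6 was -0.15 (adjusted p = 0.25), and it passed as a fall after median-ratio scaling (-0.26, adjusted p = 0.035). Stat3, the transducer of IL-6 family signals, rose in PDGFR-β+ cells from 182 to 210 TPM to 253 to 297 TPM (0.46, SE 0.088, adjusted p = 0.0055). In SMCs its value was -0.22 (adjusted p = 0.057), and the difference between the cell types passed the test (-0.67, adjusted p = 0.0010). Stat5b rose in PDGFR-β+ cells (0.39, SE 0.098, adjusted p = 0.017), but not without siKlf4 replicate 1 (0.33, adjusted p = 0.055) or siKlf4 replicate 2 (0.39, adjusted p = 0.050). Stat5a fell in SMCs (-0.40, SE 0.11, adjusted p = 0.034), and this call held without the unnumbered siKlf4 library but was lost without each of the other 5 libraries (adjusted p = 0.055 to 0.11). Irf4 and Stat4, whose products serve lymphocytes, were at most 0.102 TPM in every library.

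Ligands of the pathway were scarce. Ifnb1, the gene of interferon-β on chromosome 4 (88522025 to 88522774, reverse strand), was listed at 0 TPM in all 6 SMC libraries and in the 3 Scr libraries of PDGFR-β+ cells. With siKlf4 it measured 5.19, 3.71 and 3.16 TPM in PDGFR-β+ cells. No fold or test is given, because the Scr libraries were at 0 and the gene passed the minimum mean only through the siKlf4 libraries. Ifna4 was likewise listed at 0 TPM in all libraries except those of PDGFR-β+ cells with siKlf4, at 1.09, 0.526 and 0.899 TPM, below the minimum for a test. Ifna2, Ifna5, Ifnab, Ifne and Ifnz were at most 0.521 TPM in any library, and the gene of interferon-γ, Ifng, was at 0 TPM in all 12.

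Among 25 genes that receive or dampen the interferon signal (receptors, kinases, phosphatases and inhibitors), 23 were tested in each cell type. In PDGFR-β+ cells 10 rose and 1 fell, and in SMCs 4 rose and 1 fell, with medians of 0.21 and 0.065 beside 0.097 and 0.017 over all genes. Of the signalling genes tested, 43.5% thus rose in PDGFR-β+ cells and 17.4% in SMCs, beside 25.3% and 15.6% of all genes, and 4.35% fell in each, beside 15.3% and 12.9%. After median-ratio scaling 8 rose and 4 fell in PDGFR-β+ cells, and in SMCs 9 rose and 2 fell with a term for the naming of columns, 8 rose and 2 fell with the libraries as 3 pairs, and 7 rose in a fit of both cell types together. The strongest rise in both was of Usp18, whose product silences the type I receptor. Usp18 went from 4.51 to 11.1 TPM with Scr to 306 to 321 TPM with siKlf4 in PDGFR-β+ cells (5.44, SE 0.27, adjusted p = 1.5e-05) and from 12.6 to 24.8 TPM to 89.1 to 95.0 TPM in SMCs (2.26, SE 0.22, adjusted p = 0.0012). Socs1, a feedback inhibitor of JAK kinases, rose in PDGFR-β+ cells (1.41, SE 0.18, adjusted p = 9.0e-04), and its value in SMCs was -0.077 (adjusted p = 0.85). The kinase gene Jak2 rose in PDGFR-β+ cells (0.81, SE 0.065, adjusted p = 1.1e-04) and in SMCs (0.44, SE 0.092, adjusted p = 0.013). Ifngr2, a chain of the interferon-γ receptor, moved in opposite directions, with a rise in SMCs (0.50, SE 0.087, adjusted p = 0.0074) and a fall in PDGFR-β+ cells (-0.27, SE 0.062, adjusted p = 0.012). Ptpn11, a phosphatase gene, rose in SMCs (0.48, SE 0.062, adjusted p = 0.0030). Socs3, an inhibitor of IL-6 family signals, fell in SMCs (-0.79, SE 0.065, adjusted p = 9.0e-04), and its value in PDGFR-β+ cells was -0.41 (adjusted p = 0.070).

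Sensors and adaptors that lead to IRF3, IRF5 and IRF7 formed a second list of 25, with 23 tested in each cell type. In PDGFR-β+ cells 12 rose and 2 fell (median 0.49), and in SMCs 6 rose and 2 fell (median 0.11), beside all-gene medians of 0.097 and 0.017. Those that rose were 52.2% and 26.1% of the genes tested, beside 25.3% and 15.6% of all genes, and those that fell 8.70% in each, beside 15.3% and 12.9%. Zbp1, a sensor of nucleic acid in the Z form, rose most in both, by 3.96 (SE 0.33, adjusted p = 1.2e-04) in PDGFR-β+ cells and 1.52 (SE 0.22, adjusted p = 0.0039) in SMCs. Of the RNA helicase sensors, Ifih1 rose by 3.49 (SE 0.21, adjusted p = 3.4e-05) and 1.07 (SE 0.093, adjusted p = 0.0010) in these cell types. Dhx58 rose by 3.49 (SE 0.23, adjusted p = 4.9e-05) in PDGFR-β+ cells and 0.74 (SE 0.097, adjusted p = 0.0030) in SMCs. Ddx58 rose by 2.13 (SE 0.14, adjusted p = 4.0e-05) and 0.96 (SE 0.075, adjusted p = 8.2e-04). Ikbke encodes a kinase that phosphorylates IRF3 and IRF7. It fell in SMCs from 43.2 to 49.4 TPM to 27.7 to 33.3 TPM (-0.61, SE 0.095, adjusted p = 0.0051) and rose in PDGFR-β+ cells from 17.2 to 20.2 TPM to 27.9 to 28.9 TPM (0.59, SE 0.085, adjusted p = 0.0015). Unc93b1, which brings Toll-like receptors to endosomes, fell in PDGFR-β+ cells (-0.86, SE 0.18, adjusted p = 0.0078), as did the adaptor gene Mavs (-0.30, SE 0.091, adjusted p = 0.033). The call of Mavs was lost without Scr replicate 1 or 2 or siKlf4 replicate 2 or 3 (adjusted p = 0.082 to 0.10). Irak4, a kinase gene of the MyD88 route to IRF5, fell in SMCs (-0.44, SE 0.11, adjusted p = 0.026), and this call was lost without the unnumbered Scr library, Scr replicate 3 or siKlf4 replicate 2 or 3 (adjusted p = 0.061 to 0.090).

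Interferon-induced genes, with no IRF or STAT gene among them, formed a list of 60. In PDGFR-β+ cells 56 of 59 tested rose and 1 fell, with a median log2 fold change of 2.72. In SMCs 44 of 57 rose and 3 fell, with a median of 0.86, and in the numbered libraries alone 43 rose and 3 fell. These rises were 94.9% and 77.2% of the genes tested, beside 25.3% and 15.6% of all genes. The falls were 1.69% and 5.26%, beside 15.3% and 12.9%. Some genes of this list averaged under 1 TPM with Scr in PDGFR-β+ cells and passed the minimum mean only through their siKlf4 libraries. Examples, with Scr and siKlf4 means, are Mx1 (0.0958 and 4.68 TPM), Oas3 (0.245 and 5.81 TPM), Oas1a (0.665 and 30.6 TPM) and Cmpk2 (0.925 and 54.9 TPM). Their place in the count of rises thus leans on this filter. Between the cell types 54 of 57 differed with the lower value in SMCs and 1 with the higher, beside 18.5% and 14.5% of all genes. In the sensing list 9 of 23 had the lower value in SMCs and 1 the higher. In the signalling list these were 7 and 3 of 23. Ifi44, an antiviral effector gene, rose by 5.40 (SE 0.30, adjusted p = 2.3e-05) in PDGFR-β+ cells and 2.44 (SE 0.22, adjusted p = 0.0010) in SMCs. Isg15, the gene of a ubiquitin-like modifier, measured 12.7 to 29.3 TPM with Scr and 728 to 739 TPM with siKlf4 in PDGFR-β+ cells (5.17, SE 0.25, adjusted p = 1.3e-05) and 24.5 to 66.7 TPM and 220 to 247 TPM in SMCs (2.32, SE 0.33, adjusted p = 0.0038). The chemokine gene Cxcl10 rose by 5.02 (SE 0.19, adjusted p = 6.5e-06) in PDGFR-β+ cells and 1.58 (SE 0.26, adjusted p = 0.0059) in SMCs. Ifit3, which encodes an RNA-binding antiviral protein, rose by 3.55 (SE 0.26, adjusted p = 6.7e-05) and 2.12 (SE 0.13, adjusted p = 4.4e-04). The exceptions in SMCs were Ifitm1 (-0.75, SE 0.15, adjusted p = 0.012), Ifitm2 (-0.40, SE 0.063, adjusted p = 0.0052) and Isg20 (-0.33, SE 0.094, adjusted p = 0.036), which fell. The call of Isg20 was lost without any 1 of the 6 libraries (adjusted p = 0.053 to 0.11), whereas it rose by 1.18 (SE 0.11, adjusted p = 2.6e-04) in PDGFR-β+ cells. Ifi27 fell in PDGFR-β+ cells (-0.88, SE 0.086, adjusted p = 2.7e-04). The calls were read over all genes, and the lists were set down with results of these libraries known.

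**Figure D4:**
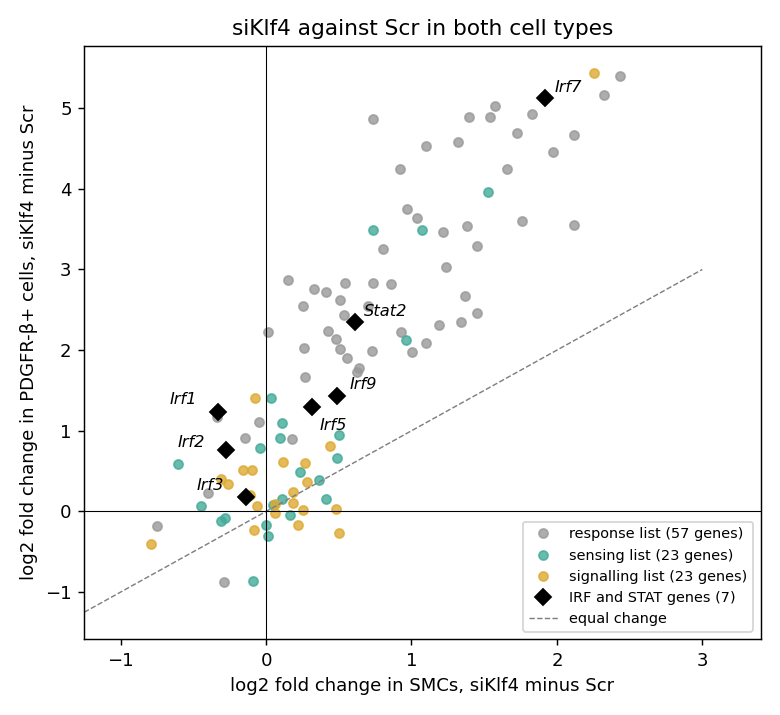
Log2 fold change in SMCs (horizontal) and PDGFR-β+ cells (vertical), siKlf4 minus Scr, for the genes fitted in both cell types, with IRF and STAT genes as black diamonds and the response, sensing and signalling lists in grey, green and yellow. The dashed line marks an equal change. The 7 diamonds lie above it, with Irf7 (1.92 and 5.13) beside the strongest responders and Irf3 (-0.14 and 0.18) near the origin.

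The genes whose log2(TPM + 1) followed each factor most closely over the 12 libraries were picked from 13032 genes that averaged 1 TPM or more in each cell type. These correlations are a description, since the libraries share treatments and tables. Irf7 was followed by H2-Q4 (Pearson r = 0.994), Isg15 (0.993) and Bst2 (0.992). Stat2 was followed by Oas1b (0.991), Ddx60 (0.988) and Gm4951 (0.987), and Irf9 by Slfn8 (0.984), Parp9 (0.984) and Iigp1 (0.984). Most of these are known as interferon-induced genes. The nearest genes of Irf1 were Stradb (0.912), Mlst8 (0.901) and D11Wsu47e (0.901), and those of Irf2 were Ano3 (0.945), Lysmd2 (0.941) and Zfp821 (0.937). Irf3 was nearest to Zc3h6 (0.970), Gcdh (0.956) and Zkscan14 (0.948), and Irf5 to Clcn6 (0.960), Rffl (0.953) and Llgl1 (0.945). Irf8 was nearest to Fdx1 (0.949), Cep44 (0.940) and Ikbke (0.939).

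RefSeq promoter windows, which run from 250 bases before a start to 50 after it, were found for all 8 genes. The core of the response element occurred on either strand in the windows of 2 of them (Irf2 and Stat2), beside 3.44% of 32851 windows and 3.99% of 27025 genes. Of the interferon-induced list it occurred in 22 of 49 genes with a window, of the sensing list in 3 of 17 and of the signalling list in 1 of 19. TTCNNNGAA occurred in 3 of the 8 genes (Irf1, Irf2 and Irf8), beside 8.30% of windows and 9.55% of genes. CCACNCCC occurred in 4 of the 8 (Irf1, Irf2, Irf7 and Stat2), beside 17.6% of windows and 19.7% of genes. The windows of Irf3, Irf5 and Irf9 held none of the 3 patterns.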

How the data were processed

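RNA-seq reads of 12 libraries were trimmed by the authors, aligned with HISAT2 to mm10 with GENCODE annotation (release not given in the sources used here) and quantified with StringTie and ballgown. The deposited values are TPM per gene, with 1 table for SMCs, 1 for PDGFR-β+ cells and a column for every library. The study's own test (DESeq2 on counts) could not be repeated on TPM. TPM fixes the total of a library, so strong rises lower other genes, and it keeps no depth, so precision rests on 3 libraries per group. All columns of the tables were used. Samples were grouped by their labels. In SMCs, 1 column per group carries no replicate number and was given none. P-values set the difference between groups against the spread between libraries, moderated by a trend over all genes. That spread may in part be technical.

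Values were analysed as log2(TPM + 1) with limma 3.58.1 in R 4.3.3 (eBayes with a mean-variance trend, two-sided, Benjamini-Hochberg over all genes tested, threshold 0.05), keeping genes that averaged 1 TPM or more over 6 libraries. Cell types were fitted separately, and their difference is the interaction term over 12 libraries. Exact permutation of 3 against 3 libraries cannot go below p = 0.1 and was not used. The scripts were tested on simulated data. The 8 genes and all lists were chosen with earlier results of these data known, so no p-value is given for the 8, and counts of them past the threshold are a description. Named beside them were the other expressed Irf and Stat genes, Klf4, interferon genes above 0 TPM, in each list and cell type the 3 largest rises and falls past the threshold whose groups did not overlap, and for each of the 8 the 3 most correlated genes. Genes that overlap 1 of the 8 were added. Some genes that this rule covers are not reported here.

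Positions are from GENCODE M21 (GRCm38), promoter sequences from RefSeq (GRCm38.p6), and motifs were searched on both strands. GENCODE M21 lists Irf8 and Irf9 under later versions (ENSMUSG00000041515.10 and ENSMUSG00000002325.15) than the deposited values do. The gene models behind the positions may thus differ from those quantified. Protein sequences were not used here, so a planned comparison of the proteins was not made. Alternatives were other pseudocounts, filters, scalings and fits, a replicate block, a covariate for how SMC columns are named, the numbered SMC libraries alone, and leaving out each library. PDGFR-β+ libraries with the same number did not deviate together (correlations 0.073, -0.016 and 0.0043). In SMCs the 2 numbered pairs had correlations of 0.19 and 0.20 and the unnumbered libraries 0.36, against -0.22 to 0.050 for other combinations. The column names of the unnumbered libraries give no replicate number, though by elimination they would take the number left over in the sample titles. No pairing was assumed for them, and a fit with these as the third pair was added after seeing the data.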

Additional observations from a re-analysis of the deposited data

Results flagged for a closer look

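For the following genes the siKlf4 effect differed between the cell types by the limma interaction term (adjusted p below 0.05). Values are the log2 fold change in SMCs minus that in PDGFR-β+ cells. It was above 0 for Klf4 (1.19), Unc93b1 (0.77), Ifngr2 (0.77), Ifi27 (0.59), Stat6 (0.46) and Ptpn11 (0.45). Among signalling and sensing genes it was below 0 for Usp18 (-3.18), Dhx58 (-2.75), Zbp1 (-2.44), Ifih1 (-2.42), Socs1 (-1.49), Ikbke (-1.20), Ddx58 (-1.16), Irak4 (-0.51) and Jak2 (-0.37). The call of Jak2 was lost after median-ratio scaling (adjusted p = 0.062) and without SMC siKlf4 replicate 2 (0.054), SMC siKlf4 replicate 3 (0.062) or PDGFR-β+ siKlf4 replicate 2 (0.057). Interferon-induced genes below 0 were Cxcl10 (-3.45), Ifi44 (-2.96), Isg15 (-2.84), Isg20 (-1.51) and Ifit3 (-1.43). Of the other STAT genes, Stat3 (-0.67), Stat5a (-0.58) and Stat5b (-0.45) were below 0.

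Irf3 and Irf8 are listed for the side on which their siKlf4 libraries lay. All were below the Scr libraries in SMCs and above them in PDGFR-β+ cells. Of all genes tested, 21.5% lay below in SMCs and 33.9% above in PDGFR-β+ cells. Irf3 had a log2 fold change of only -0.077 in the numbered SMC libraries. In PDGFR-β+ cells it had 0.073 after median-ratio scaling. Irf8 stood at only 0.113 to 0.904 TPM in PDGFR-β+ cells. The siKlf4 mean of Irf3 was 0.905 times the Scr mean in SMCs and 1.14 times in PDGFR-β+ cells, and that of Irf8 0.528 times and 4.20 times. For Irf3 the log2 fold changes differed by -0.32 (SE 0.11), given with no test since the gene was chosen on these contrasts. The difference for Irf8, which did not enter the fit in PDGFR-β+ cells, was not tested.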

How the results depend on the processing

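The log2 fold changes of the 8 genes kept their sign under all alternatives run. Those that moved by more than the spread between replicates were Irf8 in SMCs (-0.84), Irf5 in PDGFR-β+ cells (1.83) and the difference for Irf5 (-1.40) with a pseudocount of 0.1, Irf9 in SMCs (0.41) and Irf3 in PDGFR-β+ cells (0.087) after quantile normalization, and Irf3 in PDGFR-β+ cells (0.073) and its difference (-0.22) after median-ratio scaling. Signalling genes that rose in SMCs numbered 7 with both cell types in 1 fit and 9 with a term for the naming, and those that fell numbered 2 with that term or quantile normalization. Signalling genes that fell in PDGFR-β+ cells numbered 2 with no filter, with 1 fit or with the replicate block, and 4 after median-ratio scaling or quantile normalization. Sensing genes that fell numbered 1 with no filter in both cell types, and 1 with the replicate block in SMCs. Sensing genes with the larger value in SMCs numbered 2 with a minimum of 5 TPM or the naming term, and 3 after median-ratio scaling or quantile normalization.

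With 1 library left out in turn, genes called higher in SMCs numbered 1157 to 2037, beside 2136 with all libraries. Those called lower numbered 1044 to 1578, beside 1774. Sensing genes that fell numbered 1 to 2 in each cell type, sensing genes with the larger value in SMCs 1 to 2, and signalling genes that fell in PDGFR-β+ cells 1 to 2. The difference lay between -3.76 and -2.89 for Irf7 and between -1.08 and -0.76 for Irf9. The replicate block, which in SMCs uses the numbered libraries only, moved no other count by over 1.5 times (response genes that rose 39 in SMCs and 56 in PDGFR-β+ cells, genes called higher 1500 and 3486). With the unnumbered SMC libraries as the third pair, a replicate block added after seeing the data, 8 signalling genes rose and 2 fell in SMCs, 2 sensing genes had the larger value in SMCs, and genes called in SMCs numbered 2642 higher and 2230 lower. No call of a named gene was lost under it. Baseline means moved by less than 1 SD after scaling over all 12 libraries (Stat2 86.2 and 41.4 TPM, Irf7 21.1 and 6.46 TPM). Ifitm2 in SMCs lost its call with both cell types in 1 fit (adjusted p = 0.35), Tnpo3 in SMCs with the replicate block (0.055), and Stat3 in SMCs passed in the numbered libraries (-0.26, adjusted p = 0.022), after quantile normalization (0.036), with the naming term (0.018), with the 3 SMC pairs (0.040) and without the unnumbered siKlf4 library (0.030). Stat6 in PDGFR-β+ cells passed as a fall after median-ratio scaling (-0.26, adjusted p = 0.035). With no filter on low values, calls were lost in SMCs for Irak4 (adjusted p = 0.056), Isg20 (0.064) and Stat5a (0.068). That of Mavs in PDGFR-β+ cells was lost too (0.055). Irak4 also lost its call with the replicate block (0.056), and Isg20 in the numbered libraries (0.061). The cause of these moves was not tested. TPM keep no read counts, so the counting error of genes near 1 TPM, such as Irf5 and Irf8, is not given.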
